A study of Mus musculus with 14 samples.

Results

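Transcription factors that act in the making of red cells and of megakaryocytes, the parents of platelets, were followed in mouse blood: Gata1, Gata2, Tal1, Lyl1, Nfe2, Fli1, Gfi1b, Zfpm1, Runx1 and Klf1. Members were taken by symbol: a non-control array probe was a member probe when its transcript identifier matched 1 of the 10 symbols in the RefSeq gene table. All 10 genes were found, with 12 probes of the 55681 non-control probes on the array. Of the 10 genes, 9 could be tested, out of 11481 genes with a symbol and a tested probe, and Klf1 was too dim.

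Blood was taken from 14 mice, each hybridised to its own one-colour (Cy3) Agilent array. Young SS mice (8 in all) had been exposed to hostile social surroundings, and juvenile SI mice (6 in all) to social isolation. By their labels there were 4 SS males, 4 SI males, 4 SS females and 2 SI females, and strain and age were not given in the sources used here. All 14 mice had been through cocaine place conditioning at an under-threshold dose of 5 mg/kg, extinction and withdrawal, and were bled 24 hours later; no unstressed and no cocaine-free mouse was among them. Red cells were removed by lysis and the label PBMC was given to what was left, with no gradient or sort stated, so no stated step removed platelets, and how far lysis removed young red cells is not stated.

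The arrays of labelled males lay on 1 slide and those of labelled females on the other, each slide scanned on its own day, so sex label, slide and scan cannot be told apart. SI arrays lay in the first columns of each slide and SS arrays in columns 3 and 4, so stress group and position cannot be told apart either. Y-linked genes went against the sex labels: Eif2s3y and Ddx3y were each well above background on 6 of 6 labelled female arrays and on 0 of 8 labelled male arrays. The terms labelled male and labelled female below therefore name the groups as deposited. Between 34.8% and 47.7% of the spots of an array were well above background, and array brightness, the median log2 ratio of an array to the mean array, ran from -1.08 in SI labelled male 4 to 1.04 in SI labelled male 7.

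GATA1 and GATA2 are zinc finger proteins that bind the same short DNA word and replace each other during the growth of red cells and megakaryocytes; ZFPM1, a protein that binds to GATA1, is its cofactor. TAL1 and LYL1 are related basic helix-loop-helix proteins that pair with E proteins on E-box words and join GATA factors in one complex. NFE2 switches on late platelet genes, FLI1 and RUNX1 are megakaryocyte regulators, GFI1B is a repressor needed in both lineages, and KLF1 drives globin and other red cell genes. Platelets and young red cells have no nucleus but carry RNA from their parent cells, so transcripts of such factors can be read in blood. In bulk RNA of this kind, fewer cells of a type and less RNA per cell cannot be told apart.

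The start regions of 4 of the factors are printed as a description, and no test below uses them. Gata1, Tal1 and Gfi1b had a platelet slope that passed, and Lyl1 had not. Gata2 and Nfe2 are not printed, and their platelet slopes passed too. Sequences are RefSeq promoters on build GRCm38.p6, from 250 bases before to 50 bases after the gene start, 5′ to 3′ on the gene's strand. Capitals mark the GATA word, searched on both strands as AGATAA or AGATAG or TGATAA or TGATAG. The regions are chrX:7967861-7968160 on the minus strand for Gata1, chr4:115056176-115056475 on the plus strand for Tal1 (the first of its 2 listed promoters), chr2:28621933-28622232 on the minus strand for Gfi1b and chr8:84701207-84701506 on the plus strand for Lyl1.
Gata1: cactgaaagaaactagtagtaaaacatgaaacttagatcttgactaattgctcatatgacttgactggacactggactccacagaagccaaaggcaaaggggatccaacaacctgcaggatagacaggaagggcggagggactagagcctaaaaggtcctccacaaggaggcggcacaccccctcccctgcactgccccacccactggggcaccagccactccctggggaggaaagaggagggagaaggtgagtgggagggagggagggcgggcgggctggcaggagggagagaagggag
Tal1: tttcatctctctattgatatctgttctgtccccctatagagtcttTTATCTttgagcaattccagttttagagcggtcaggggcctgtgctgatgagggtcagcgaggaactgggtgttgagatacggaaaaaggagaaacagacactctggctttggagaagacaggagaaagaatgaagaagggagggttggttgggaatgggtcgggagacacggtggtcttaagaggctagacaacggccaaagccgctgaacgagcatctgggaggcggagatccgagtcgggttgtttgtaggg
Gfi1b: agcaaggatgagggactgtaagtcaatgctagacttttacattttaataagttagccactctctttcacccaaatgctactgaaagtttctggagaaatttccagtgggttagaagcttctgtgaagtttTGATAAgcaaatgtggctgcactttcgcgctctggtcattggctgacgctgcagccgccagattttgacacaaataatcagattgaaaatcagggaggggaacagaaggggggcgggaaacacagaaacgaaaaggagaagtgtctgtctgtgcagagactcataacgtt
Lyl1: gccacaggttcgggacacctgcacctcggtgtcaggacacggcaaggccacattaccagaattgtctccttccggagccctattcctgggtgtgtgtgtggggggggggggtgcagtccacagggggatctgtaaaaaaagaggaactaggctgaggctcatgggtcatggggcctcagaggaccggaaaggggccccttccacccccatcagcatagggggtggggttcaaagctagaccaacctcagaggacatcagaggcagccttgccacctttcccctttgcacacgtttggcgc

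The promoter table held 11 promoters of 8 of the 10 genes. A GATA word occurred in 3 of the 11, 1 each in Tal1, Gfi1b and Klf1, against 29.8% of 32851 promoters of the same length. Relative to the start its first base lay at -205 in Tal1 and at -80 in Klf1, both on the opposite strand, and at -120 in Gfi1b on the gene's own strand. No GATA word was in either listed promoter of Gata2 or in the second of Tal1. E-box words (CAGATG or CAGCTG) were in 3 of the 11 promoters and in 30.6% of all, ETS words (CCGGAA or AGGAAG) in 4 and 45.2%, RUNX words (TGTGGT or TGCGGT) in 2 and 22.4%, and CACCC words (CCACACCC or CCGCACCC) in 1 and 5.31%. The NF-E2 word TGAGTCA was in 0 of the 11 and in 5.2% of all. Matches of different words did not overlap in the members' promoters. Apart from the CACCC word, whose share was higher through 1 promoter, the shares in the members lay near or below those of all promoters. A match is a description of letters only.

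Values below are log2 processed signals minus the 75th percentile, on each array, of the probes well above background on every array. They are called scaled log2 signal, they can be negative, and the level of one probe says nothing against the level of another. SS was compared with SI by limma, with Benjamini-Hochberg adjustment across the 24013 probes tested, and "rose" is used of an adjusted p under 0.05.

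Across all mice, 7 of the 9 tested factors were higher in SS than in SI: Gata2, Gfi1b, Gata1, Tal1, Nfe2, Runx1 and Fli1, by 1.83-fold to 3.22-fold. Zfpm1 and Lyl1 did not pass, and no member fell. Among all tested probes 7.97% passed: 7.4% rose and 0.571% fell. At an unadjusted p under 0.05 there were 7 of the 9 factors, against 20.3% of all probes. The median SS minus SI of the 9 members was 1.04 on the log2 scale, against -0.04 over all tested probes. The sizes depend on the processing: in the deposited value table the differences were 0.84 for Gata1, 0.64 for Tal1, 0.50 for Nfe2, 0.54 for Fli1 and 1.44 for Runx1 (log2), each over 1.5 times from the values given below. On the plot of the factors by array, the 7 that rose sit higher in SS than in SI on both slides.

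**Figure D1:**
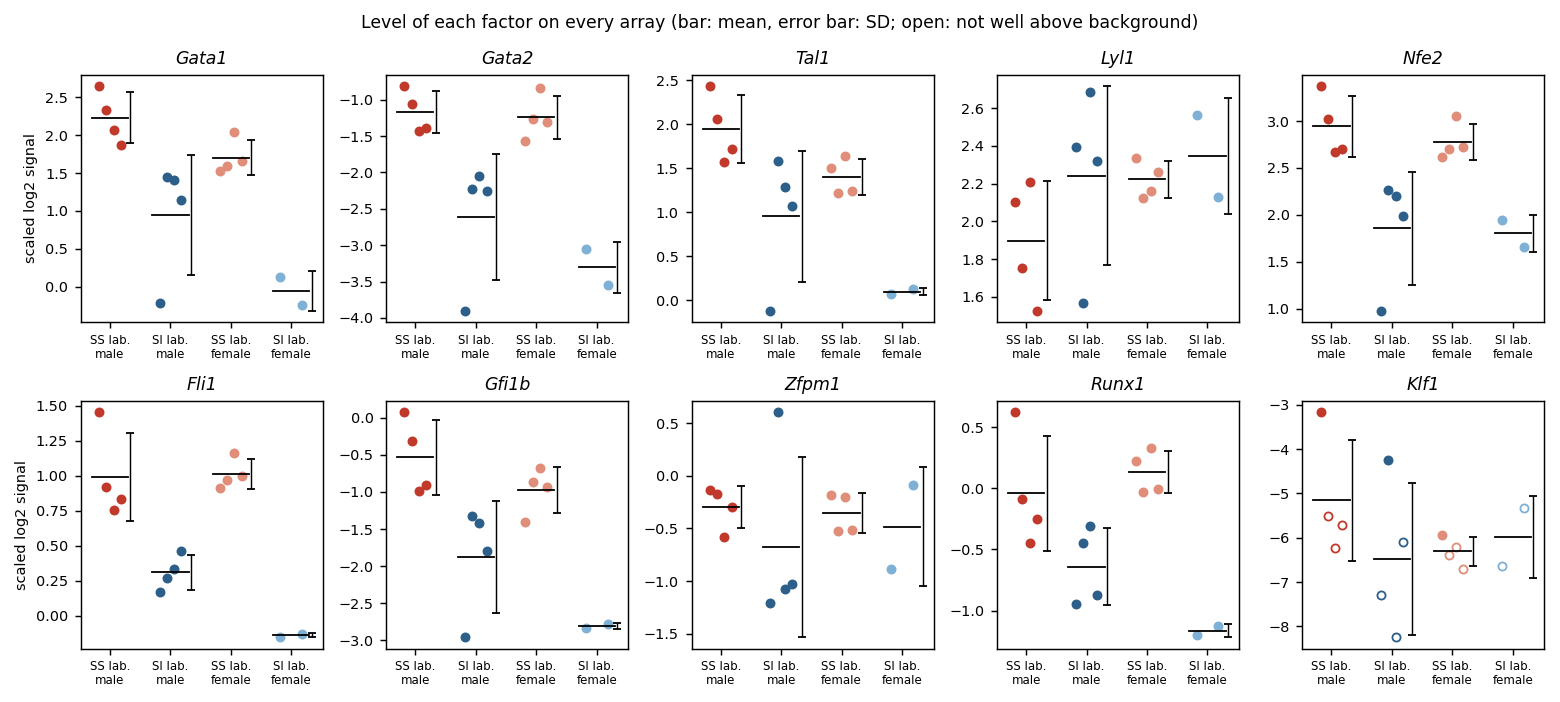
Scaled log2 signal (vertical axes, one panel per factor) on each of the 14 arrays, with the SS group left of the SI group, first for labelled males and then for labelled females; each point is 1 mouse, bars are group means, error bars are SD, and open points were not well above background. Every SS point lies above every SI point on both slides for Gata1, Gata2, Nfe2, Fli1 and Gfi1b, while Lyl1 and Zfpm1 overlap and Klf1 is open on 11 of 14 arrays.

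Gata1, the GATA factor of maturing red cells and megakaryocytes, read 2.65, 2.33, 2.07 and 1.87 in SS labelled males, against 1.45, 1.14, -0.22 and 1.40 in SI labelled males. In labelled females it read 1.59, 1.65, 1.52 and 2.04 in SS, against 0.13 and -0.24 in SI. SS and SI did not overlap on either slide, and SI labelled male 6 was the low array of its group. Gata1 was 1.48 ± 0.26 higher in SS (log2, SE; 2.78-fold; limma adjusted p = 0.00475).

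Gata2, the GATA factor of blood progenitors, early megakaryocytes and mast cells, read -0.81, -1.06, -1.42 and -1.39 in SS labelled males, against -2.23, -2.26, -3.90 and -2.05 in SI labelled males. Labelled females read -1.26, -1.31, -1.56 and -0.85 in SS, against -3.06 and -3.55 in SI. The groups again did not overlap, and the lowest array was SI labelled male 6. With 1.69 ± 0.28 (log2, SE; 3.22-fold; limma adjusted p = 0.00475) Gata2 had the largest change among the 9 tested factors on this scale, and 0.312% of all tested probes had a higher one. In the deposited value table Gfi1b had the largest (3.26) and Gata2 the next (2.92). Of 9 markers of mast cells and basophils, 2 passed the filter on dim probes, Hdc and Tpsb2, and neither rose in SS (-0.96 ± 0.38 and 0.09 ± 0.35, log2, SE); Kit, Cpa3, Ms4a2, Fcer1a, Mcpt8, Prss34 and Cma1 were too dim to test.

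Zfpm1, the GATA1 cofactor, was read by a pair of probes that gave nearly the same values. Its brighter probe read -0.14, -0.17, -0.58 and -0.30 in SS labelled males, against 0.60, -1.02, -1.20 and -1.08 in SI labelled males. Values in labelled females were -0.53, -0.51, -0.18 and -0.20 in SS, against -0.88 and -0.09 in SI. SI labelled male 4 stood above every other array, and without it SS and SI of the labelled males would not overlap. The change in all mice was 0.28 ± 0.27 (log2, SE; limma adjusted p = 0.574), and the other probe gave 0.28 (0.588). It was 0.51 (0.0757) without SI labelled male 4, 0.17 (0.823) without SI labelled male 6, and 0.62 (0.351) in the deposited value table.

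Tal1, the helix-loop-helix factor of the GATA complex, read 2.44, 2.06, 1.57 and 1.72 in SS labelled males, against 1.58, 1.07, -0.12 and 1.29 in SI labelled males. In labelled females it read 1.22, 1.24, 1.50 and 1.64 in SS, against 0.07 and 0.12 in SI. The labelled females did not overlap, and the labelled males overlapped by 1 pair of near-equal values, 1.57 in SS mouse 3 and 1.58 in SI mouse 4. Tal1 was 1.12 ± 0.25 higher in SS (log2, SE; 2.17-fold; limma adjusted p = 0.0106).

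Its relative Lyl1, which can partly replace TAL1 in blood stem cells, did not pass. It read 2.10, 1.75, 2.21 and 1.52 in SS labelled males, against 1.57, 2.32, 2.39 and 2.69 in SI labelled males. Labelled females read 2.13, 2.26, 2.34 and 2.16 in SS, against 2.56 and 2.13 in SI. The groups overlapped on both slides, and SS minus SI was -0.26 ± 0.19 (log2, SE; limma adjusted p = 0.466).

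Nfe2, the leucine zipper factor of platelet release, read 3.38, 3.02, 2.68 and 2.70 in SS labelled males, against 2.26, 1.98, 0.97 and 2.20 in SI labelled males. Values in labelled females were 2.70, 2.73, 2.62 and 3.06 in SS, against 1.94 and 1.66 in SI. All SS arrays stood above all SI arrays of their slide, and the change was 1.04 ± 0.21 (log2, SE; 2.06-fold; limma adjusted p = 0.00676).

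Fli1, an ETS factor of megakaryocytes, endothelium and leukocytes, read 1.45, 0.92, 0.76 and 0.83 in SS labelled males, against 0.27, 0.46, 0.17 and 0.33 in SI labelled males. In labelled females it read 0.97, 1.00, 0.91 and 1.16 in SS, against -0.15 and -0.13 in SI. SI labelled male 6, the low array of its group for Gata1, Gata2, Tal1 and Nfe2, lay close to the other SI labelled males here, and SS and SI did not overlap on either slide. Fli1 was 0.87 ± 0.15 higher in SS (log2, SE; 1.83-fold; limma adjusted p = 0.00475).

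Gfi1b, the zinc finger repressor, read 0.08, -0.31, -0.98 and -0.91 in SS labelled males, against -1.32, -1.80, -2.96 and -1.42 in SI labelled males. Labelled females read -0.87, -0.93, -1.41 and -0.67 in SS, against -2.84 and -2.77 in SI. SS and SI did not overlap on either slide, and Gfi1b was 1.54 ± 0.27 higher in SS (log2, SE; 2.91-fold; limma adjusted p = 0.00475).

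Runx1, the Runt domain factor, has transcripts from 2 promoters, and its probes carry the identifiers of different transcripts. The brighter probe read 0.62, -0.08, -0.45 and -0.25 in SS labelled males, against -0.44, -0.87, -0.95 and -0.31 in SI labelled males. Values in labelled females were -0.03, -0.0011, 0.23 and 0.33 in SS, against -1.20 and -1.13 in SI. The labelled males overlapped and the labelled females did not, and the change in all mice was 0.88 ± 0.21 (log2, SE; 1.84-fold; limma adjusted p = 0.0148). The dimmer Runx1 probe, well above background on 11 of 14 arrays, changed by 0.20 (0.578), so the pair of Runx1 probes did not give the same call. The call of the brighter probe was lost without SI labelled female 27 (adjusted p = 0.055) or 28 (0.0532), and with the 75th percentile of all probes as the scale (0.0793).

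Klf1, the red cell factor, was well above background on 3 of 14 arrays: SS labelled male 1 at -3.17, SS labelled female 22 at -5.94 and SI labelled male 4 at -4.26. It was not tested, and its means of -5.15 in SS labelled males, -6.48 in SI labelled males, -6.31 in SS labelled females and -5.98 in SI labelled females lie mostly at background.

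Within the slides, Gata2, Gfi1b and Gata1 had the largest differences on both. In labelled males 0 of 9 factors passed by limma, with 7 at an unadjusted p under 0.05, and 0 of 24013 probes passed (0.0%), with 5700 at an unadjusted p under 0.05 (23.7%). The estimates there were 1.44 for Gata2, 1.34 for Gfi1b, 1.29 for Gata1, 1.09 for Nfe2 and 0.68 for Fli1, each at a limma adjusted p of 0.0851. Without SI labelled male 4, the dimmest array, 9412 of the 24013 probes passed in labelled males, not split by direction here. In that fit 7 factors rose, Zfpm1 among them (0.81, adjusted p = 0.0178), and Lyl1 fell (-0.57, 0.0437). Calls were thus common across the array in that fit.

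Among labelled females 5 factors rose, against 3.18% of all probes, and 0 fell, against 0.82%: Gata2 by 2.06 ± 0.44, Gfi1b by 1.83 ± 0.43, Gata1 by 1.76 ± 0.41, Runx1 by 1.30 ± 0.30 and Fli1 by 1.15 ± 0.23 (log2, SE; limma adjusted p = 0.0239 to 0.0368). Tal1 at 1.30 (0.0915) and Nfe2 at 0.97 (0.153) did not pass there. At an unadjusted p under 0.05 there were 7 factors on that slide, against 15.8% of all probes. With 2 SI mice these calls are fragile: the count of factors that rose ran from 0 to 7 when single arrays were left out, and was 0 without any 1 of the 6 labelled female arrays.

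No factor differed between the slides by the test of the difference itself, with estimates (labelled females minus labelled males) of -0.25 for Zfpm1 to 0.70 for Runx1 and limma adjusted p-values of 0.470 to 0.908. Of the 9 factors 0 had an unadjusted p under 0.05 in that test, against 12.6% of all probes, and 0.0458% of all probes passed it after adjustment. All SS arrays stood above all SI arrays for 5 factors in labelled males, where 8.4% of all probes did so, for 7 factors in labelled females (16.5%), and for 5 factors on both slides (5.11%). Those 5 are Gata1, Gata2, Nfe2, Fli1 and Gfi1b.

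**Figure D2:**
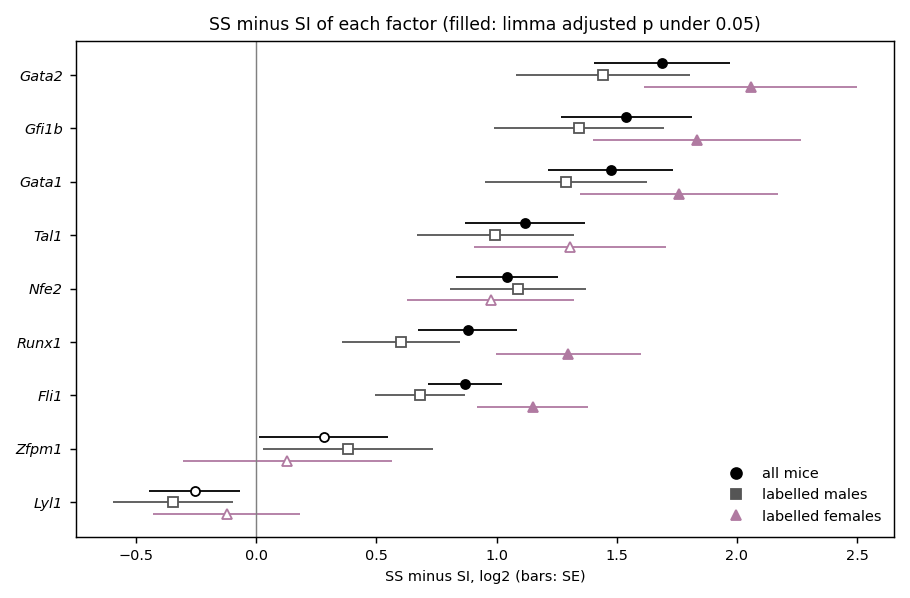
SS minus SI of the 9 tested factors (log2, horizontal axis) in all mice (circles), labelled males (squares) and labelled females (triangles), with SE bars; filled symbols have a limma adjusted p under 0.05. Gata2, Gfi1b and Gata1 lie farthest to the right, 7 factors are filled in all mice and 0 in labelled males, and Lyl1 lies left of 0.

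The second question was which factors follow platelet genes and which follow red cell genes from mouse to mouse. Each array was given a platelet score, the mean centred log2 level of 35 platelet genes such as Pf4, Itga2b and Gp1bb, and a red cell score over 39 genes such as Alas2, the first enzyme of erythroid heme synthesis, Slc4a1, the band 3 anion exchanger, and the globins Hba-a1 and Hbb-bt. Neither list holds a member. Of the platelet genes 33 of 35 rose in SS (median 1.48, log2). Of the red cell genes 4 of 39 rose and none fell, with 5 higher and 3 lower at an unadjusted p under 0.05 and a median of -0.26. Of all tested probes 7.4% rose, 0.571% fell and 20.3% had an unadjusted p under 0.05, and the red cell counts lay near these shares.

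The platelet score was 0.73 ± 0.37 in SS labelled males, against -0.55 ± 0.82 in SI labelled males (SD, n = 4 each; difference 1.28, exact permutation p = 0.0286, the smallest this slide allows). It was 0.43 ± 0.18 in SS labelled females (SD, n = 4), against -1.24 ± 0.24 in SI labelled females (SD, n = 2; difference 1.67, exact permutation p = 0.0667, again the smallest possible). The difference over both slides was 1.44 (exact permutation within slides, two-sided, p = 0.000952, the smallest possible; adjusted over 12 lists 0.0114).

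The red cell score was 0.16 ± 0.71 in SS labelled males, against 0.07 ± 1.37 in SI labelled males (SD, n = 4 each; difference 0.10, exact permutation p = 0.943). It was -0.42 ± 0.23 in SS labelled females (SD, n = 4), against 0.37 ± 0.47 in SI labelled females (SD, n = 2; difference -0.79, exact permutation p = 0.0667, the smallest this slide allows). Over both slides the difference was -0.26 (exact permutation p = 0.612; adjusted over 12 lists 0.668). SI labelled male 4 had the highest red cell score of all arrays, 1.94, and SI labelled male 7 the lowest, -1.34.

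The red cell score moved with array brightness: with group means removed their Pearson correlation over 14 arrays was -0.95, against -0.57 for the platelet score. The same measure had a median size of 0.711 over all tested probes, and the part of brightness in the red cell slopes is given with those slopes. The scores correlated with each other at 0.46 within groups, and at -0.02 without SI labelled male 4. That correlation was 0.37 in labelled males and -0.86 in labelled females.

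**Figure D3:**
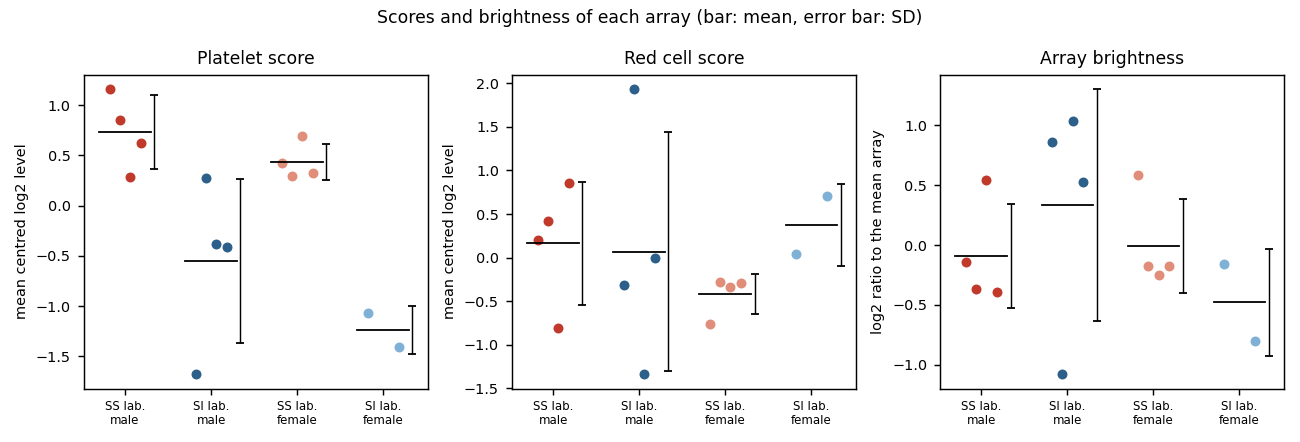
Platelet score, red cell score (both mean centred log2 levels) and array brightness (log2 ratio to the mean array) of the 14 arrays, with SS left of SI on each slide; points are mice, bars means and error bars SD. The platelet score is higher in SS on both slides, while the red cell score and brightness spread most among the SI labelled males, in opposite order.

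Each probe was then fitted on both scores at once within the 4 groups, so that neither the SS and SI contrast nor the slide enters the slopes. A platelet slope of 1 means that a gene rises by 1 log2 unit when the platelet genes do, at a fixed red cell score.

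A positive platelet slope was found for 5 factors, against 4.51% of all probes: Gata2 with 1.13 ± 0.15, Gata1 with 1.06 ± 0.11, Gfi1b with 0.99 ± 0.18, Tal1 with 0.97 ± 0.12 and Nfe2 with 0.84 ± 0.11 (SE; limma adjusted p = 0.000567 to 0.00846). Runx1 (0.50 ± 0.18, adjusted p = 0.155), Zfpm1 (0.35 ± 0.20, 0.368), Fli1 (0.24 ± 0.14, 0.386) and Lyl1 (0.06 ± 0.11, 0.813) did not pass. All 5 factors kept their platelet slope calls when array brightness was added to the fit, at 0.76 to 1.01 (adjusted p = 0.00268 to 0.0221), and without SI labelled male 4 (0.86 to 1.20, 0.00291 to 0.0212). Gfi1b lost its call without SI labelled male 7 (0.87, 0.0726). In the deposited value table Gata1 (0.95, 0.0103) and Tal1 (0.86, 0.0165) kept their calls. Gata2 (2.15, 0.23), Gfi1b (1.72, 0.415) and Nfe2 (0.64, 0.0519) lost theirs there. Without SI labelled male 6, the array with the lowest platelet score, the slopes were 0.87 to 0.99, but 0 of the 9 factors and 0 of 24013 probes passed (adjusted p of the 5 between 0.0887 and 0.213). In that fit the slope of Runx1 was 1.05 (0.125), higher than those of the 5 factors, and that of Fli1 was 0.50 (0.35). The calls of all 5 factors, and the gap between them and Runx1, therefore rest on SI labelled male 6.

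The red cell slope passed for 4 of 9 factors, which is near the share of all tested probes that passed in either direction. It was positive for Zfpm1 (0.40 ± 0.12, SE; limma adjusted p = 0.0214), where 25.8% of all probes had a positive one. It was negative for Lyl1 (-0.38 ± 0.066, 0.0014), Gata2 (-0.24 ± 0.085, 0.0447) and Gata1 (-0.20 ± 0.067, 0.0341), where 17.2% of all probes had a negative one. With brightness as a further term 0 of 9 factors passed, and 13 of 24013 probes did. The estimates of Gata1 (-0.52 ± 0.17, SE; adjusted p = 0.328) and Gata2 (-0.59 ± 0.23, 0.38) were larger in size there with larger errors, and that of Gfi1b was -0.78 ± 0.23 (0.287). Those of Lyl1 (-0.27 ± 0.20, 0.606) and Zfpm1 (0.23 ± 0.36, 0.821) were smaller. Without SI labelled male 4, Zfpm1 had a red cell slope of 0.17 (0.434), Gata1 -0.21 (0.173) and Gata2 -0.14 (0.431), and Lyl1 kept its call at -0.37 (0.0316). Of the 14 fits that left out 1 array, the Lyl1 call was lost in 0, that of Zfpm1 in 2 (also without SI labelled male 7, 0.0813), that of Gata1 in 5 and that of Gata2 in 11. Gata1 was lost without any 1 of SI labelled males 4, 6 and 7 and SS labelled males 3 and 01b (adjusted p = 0.0651 to 0.175).

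The difference between the slopes, each taken per within-group SD of its score, was positive for 6 factors, against 3.42% of all probes. It was 0.78 ± 0.13 for Gata2, 0.71 ± 0.10 for Gata1, 0.58 ± 0.16 for Gfi1b, 0.56 ± 0.10 for Tal1, 0.54 ± 0.091 for Nfe2 and 0.36 ± 0.097 for Lyl1 (SE; limma adjusted p = 0.00317 to 0.0338). Lyl1 alone of these 6 had no platelet slope that passed. Zfpm1 (-0.17 ± 0.17, 0.621), Fli1 (0.16 ± 0.12, 0.463) and Runx1 (0.34 ± 0.16, 0.193) were not told apart. With brightness as a term 0 factors passed this test (Gata1 0.057, Gfi1b 0.073, Gata2 0.075), although the estimates for those 3 were larger, at 0.93 to 1.06. Without SI labelled male 6, 2 factors passed, Gata1 (0.46, 0.0416) and Lyl1 (0.45, 0.0377). Over the 14 fits that left out 1 array, Lyl1 and Gfi1b lost this call in 6 each, with adjusted p-values of up to 0.0944 for Lyl1 and 0.255 for Gfi1b, and Gata1 in 0.

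**Figure D4:**
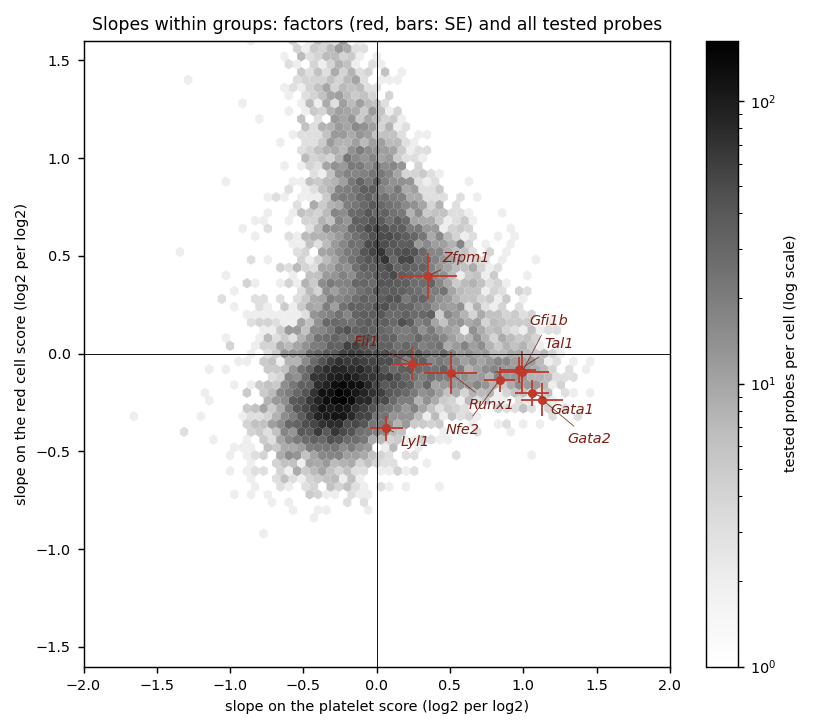
Slope on the platelet score (horizontal) against slope on the red cell score (vertical), both in log2 per log2, for the 9 tested factors (red, with SE bars) over the density of all 24013 tested probes (grey, log scale; probes beyond the axes are not drawn). Gata1, Gata2, Gfi1b, Tal1 and Nfe2 lie at platelet slopes of 0.84 to 1.13 with red cell slopes at or below 0, Zfpm1 is the 1 factor with a positive red cell slope, and Lyl1 has the most negative one.

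Correlations with the scores, with group means removed, were tested by permutation. With the platelet score Tal1 correlated at r = 0.963 (exact permutation within groups, two-sided, p = 0.000181; rho = 0.903, p = 0.000362), Nfe2 at r = 0.945 (exact p = 0.000434; rho = 0.943, p = 0.000543) and Gata1 at r = 0.926 (exact p = 0.00148; rho = 0.912, p = 0.00148). These 3 passed after adjustment over all tested probes (0.0141, 0.0202 and 0.0442), where 3.39% of all probes did so with a positive r. Gata2 at r = 0.889 (exact p = 0.00423, adjusted 0.0889; rho = 0.877, p = 0.00199) and Gfi1b at r = 0.885 (exact p = 0.0021, adjusted 0.0555; rho = 0.811, p = 0.00351) did not pass by r. By rho the same 3 factors and Runx1 passed, and 3.13% of all probes did so with a positive rho.

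Without the 2 arrays farthest from the median platelet score, SI labelled male 6 and SI labelled female 28, r was 0.932 for Tal1, 0.822 for Nfe2, 0.746 for Gfi1b, 0.744 for Gata1 and 0.592 for Gata2, the last with an exact permutation p of 0.0631. Within labelled males r was 0.904 to 0.982 for these 5 factors (n = 8; exact permutation p = 0.00174 to 0.0226). Within labelled females it was 0.917 for Gata1, 0.903 for Nfe2, 0.816 for Gata2, 0.670 for Tal1 and 0.256 for Gfi1b (n = 6; exact permutation p = 0.104 to 0.625). Arrays of 1 slide share a scan day, and these correlations were not adjusted for array brightness, which differed between arrays as described above.

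Runx1 and Fli1 also rose in SS, and their difference from the 5 factors in following the platelet score was not tested. Runx1 had r = 0.667 (exact permutation p = 0.0126, adjusted 0.175; rho = 0.780, p = 0.00109, adjusted 0.0396) and r = 0.748 without the 2 farthest arrays. Fli1 had r = 0.514 (exact permutation p = 0.0504, adjusted 0.303; rho = 0.670, p = 0.0131) and 0.563 without them. Zfpm1 had r = 0.636 (exact permutation p = 0.244; rho = 0.314, p = 0.335) and 0.294 without SI labelled male 4, and Lyl1 had r = -0.358 (exact permutation p = 0.464; rho = -0.0022).

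With the red cell score Lyl1 correlated at r = -0.951 (exact permutation p = 0.000109, adjusted 0.00374; rho = -0.947, p = 0.000109), a call that 9.92% of all probes shared in the negative direction. It was -0.883 without SI labelled males 4 and 7, the 2 farthest arrays, and -0.961 in labelled males and -0.909 in labelled females. Lyl1 also tracked array brightness, at r = 0.914, or 0.796 without SI labelled male 4, and its red cell slope with brightness in the fit is given above as not passing. Zfpm1 correlated with the red cell score at r = 0.809 (exact permutation p = 0.0304, adjusted 0.0714; rho = 0.657, p = 0.0564), which was 0.492 without the 2 farthest arrays, and with brightness at -0.837. For Gata1, Gata2, Tal1, Nfe2, Fli1, Gfi1b and Runx1 r with the red cell score lay between 0.057 and 0.321, with exact permutation p-values of 0.531 to 0.863.

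**Figure D5:**
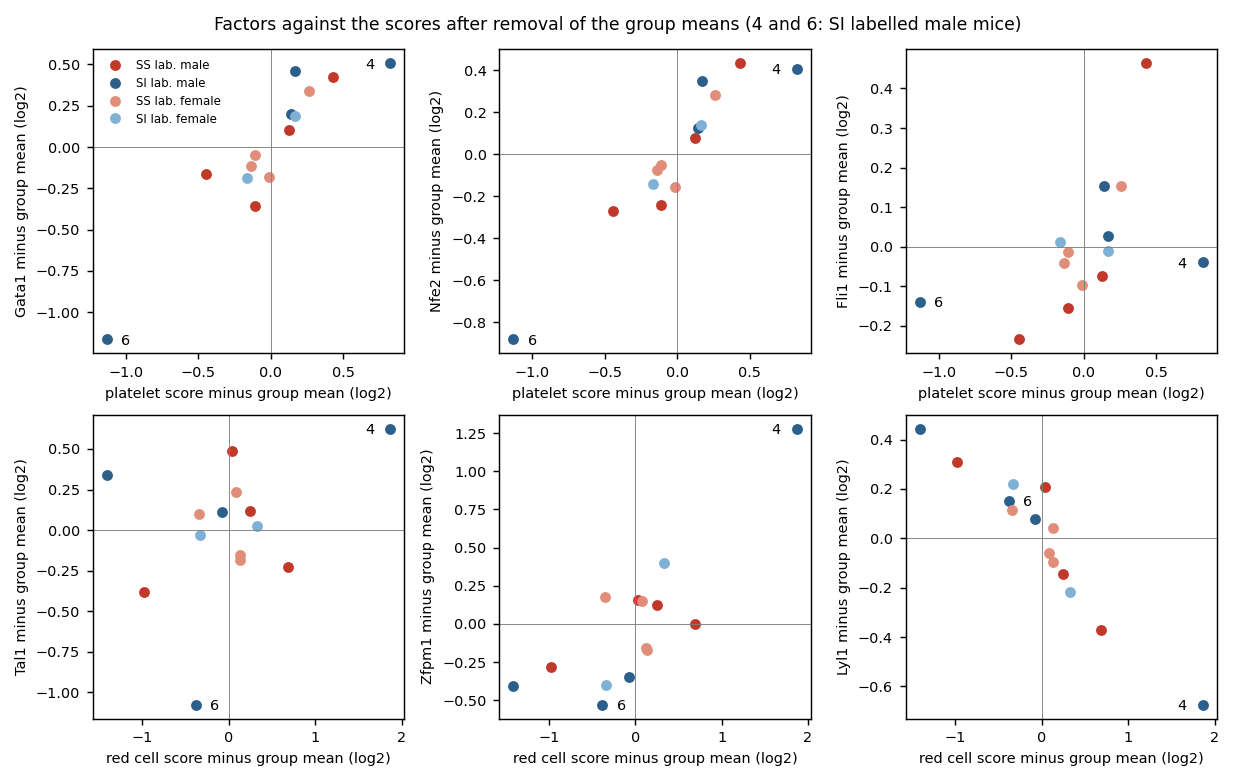
Scaled log2 signal of 6 factors against the platelet score (upper row) or the red cell score (lower row), all minus their group means (log2), for 14 arrays coloured by group; the numbers 4 and 6 mark SI labelled males 4 and 6. Gata1 and Nfe2 rise with the platelet score with mouse 6 at the low end, Fli1 scatters more, Lyl1 falls with the red cell score, and the slope of Zfpm1 leans on mouse 4.

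Among themselves, the 5 factors with a platelet slope that passed correlated at r = 0.883 to 0.989 after removal of the group means (10 pairs, 14 arrays), with Gata1 and Nfe2 the closest pair. Fli1 and Runx1 correlated at 0.760 with each other and at 0.548 to 0.763 with those 5. Lyl1 and Zfpm1 ran opposite to each other (-0.790). With array brightness they correlated at 0.914 and -0.837, and at 0.796 and -0.426 without SI labelled male 4. The part of brightness in their opposite run was not tested.

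The genes nearest to each factor over the same 14 arrays, out of 11472 genes, are given as a description. Array brightness differed between arrays and was not taken out of these correlations. Gata1 was nearest to Clec1b, the platelet receptor for podoplanin (r = 0.989), and to Ormdl3, a regulator of sphingolipid synthesis (0.987). Gata2 was nearest to P2ry12, the platelet ADP receptor (0.984), and Ubash3b, a tyrosine phosphatase (0.975). Tal1 was nearest to Pear1, a platelet and endothelial receptor (0.988), and Arhgap18, a GTPase-activating protein (0.984).

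Nfe2 was nearest to Smim3 (0.993) and Ormdl3 (0.991), and Gfi1b to A930003A15Rik (0.979) and Smim3 (0.971), so those factors shared neighbours. Runx1 was nearest to Lasp1, an actin-binding protein, and to Jak2, the kinase of the erythropoietin and thrombopoietin receptors (0.957 each). Among the genes near Fli1 was Ramac, a subunit of the RNA cap methyltransferase (0.910). Zfpm1 was nearest to Marchf2, a membrane ubiquitin ligase (0.962), and Fgfrl1, an FGF receptor-like protein (0.958), and Lyl1 to Ccdc97 (0.981) and Ndufb3, a subunit of respiratory complex I (0.978).

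The 4 red cell genes that rose, a count near the share of all probes, did so together with the platelet genes. They were Aqp1, a water channel (1.54 ± 0.28, log2, SE; limma adjusted p = 0.00489), Epor, the erythropoietin receptor (1.43 ± 0.25, 0.00475), Sptb, beta spectrin (1.41 ± 0.34, 0.0184), and Gypc, glycophorin C (1.18 ± 0.23, 0.00557). Each had a platelet slope that passed, from 0.81 to 1.33, and none had a red cell slope that passed, with adjusted p-values of 0.197 to 0.906. By contrast 30 of the 39 red cell genes had a positive red cell slope, Slc4a1 (1.96 ± 0.11), Alas2 (1.63 ± 0.20) and Hba-a1 (0.66 ± 0.091) among them, and these genes made up the score itself.

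Of 47 tested partners and relatives of the factors, 1 rose and 0 fell, with 2 higher and 6 lower at an unadjusted p under 0.05 and a median of -0.21. The 1 that rose was Meis1, a homeobox factor of stem cells and megakaryocytes (1.27 ± 0.24, log2, SE; limma adjusted p = 0.00512), which also had a platelet slope of 0.82 ± 0.19 (0.0298). The direct partners in the GATA and TAL1 complex did not pass: Lmo2 at -0.41 ± 0.20 (0.279), Ldb1 at -0.03 ± 0.25 (0.953) and Cbfa2t3 at -0.14 ± 0.13 (0.571). Mafg, a small Maf protein that pairs with NFE2, was at 0.45 ± 0.17 (0.154), Cbfb, the partner of RUNX1, at -0.30 ± 0.19 (0.403), and Gata3, the GATA factor of T cells, at -0.03 ± 0.31 (0.961). These partners are also made by leukocytes, and their part in the readings was not tested. Of the 47, Meis1 alone had a positive platelet slope that passed, against 4.51% of all probes. A negative one passed for 3: Tcf12 (-0.80 ± 0.15, SE; limma adjusted p = 0.00824), Ikzf1 (-0.43 ± 0.10, 0.0372) and Nfia (-3.58 ± 0.52, 0.00199). Nfia was well above background on 7 arrays only, and the share of all probes with a negative platelet slope is not given here.

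Markers of other cell types that make some of these factors moved in part with the groups. Of 8 progenitor markers 6 were tested and 0 rose or fell by limma (1 higher and 1 lower unadjusted; median -0.28), and Kit and Procr were too dim. Of 6 tested eosinophil markers 0 rose or fell (2 lower unadjusted; median -0.46), and Epx and Prg2 were too dim. Of 5 tested endothelial markers, Vwf (1.48), which is also on the platelet list, and Pecam1 (1.17) rose. Tie1 (1.70) also passed, but it was well above background on 6 SS arrays and 1 SI array and so entered the test through the group where it was high. The markers Cdh5, Tek and Emcn were too dim, and Kdr was at -0.08. Pecam1 and Vwf had platelet slopes of 0.73 and 1.09 that passed.

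Of 8 monocyte markers F13a1, also a platelet protein, rose (1.30). Neutrophil, B cell, T cell and NK cell markers had 0 calls by limma in all mice among 11, 8, 7 and 7 tested genes. At an unadjusted p under 0.05, 2 neutrophil markers and 1 NK cell marker were lower and 1 T cell marker was higher. The share of all probes was 20.3% in either direction. In labelled females, with 2 SI mice, 7 of the 11 neutrophil markers fell by limma, against 0.82% of all probes, and 0 did in labelled males. The neutrophil score differed in opposite directions on the slides, at 0.14 ± 0.17 in SS against -0.45 ± 0.50 in SI labelled males (SD, n = 4 each), and -0.75 ± 0.23 in SS against 2.10 ± 0.67 in SI labelled females (SD, n = 4 and 2). The 7 factors that rose were called from a fit over both slides, and the part of neutrophils in their levels was not tested. The part of these cell types in the levels of Fli1, Runx1 and Lyl1, which leukocytes also make, was not tested.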

How the data were processed

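RNA from the blood of 14 mice was measured on 14 arrays, and n counts mice; their number limits the precision. Deposited scanner files give, per the file headers, intensity for the processed, median and local background signals, plus flags (other columns) for controls, outliers, saturation and spots well above background. Background was subtracted and spatial trends were removed with Feature Extraction, version 10.7.3.1 by the headers and 9.1 per the submitters' processing notes. The value table that the authors deposited is on the log2 scale and holds 27990 probes. How it was normalized was not found in the labels or headers. Its column medians ran from 7.22 to 7.74, and each column correlated with the scanner signal of its array at r = 0.974 to 0.981, so higher means brighter.

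Of 62976 spots per array, 3671 control spots were left out. Outlier spots were left out only where the probe had another spot that was not flagged, and the rest were averaged by probe on the log2 scale. The scale of an array was the 75th percentile of the 14504 probes well above background everywhere. A probe was tested if it was so on at least 6 arrays. Of 31063 probes with a RefSeq identifier, 26425 matched a symbol, and the brightest tested probe stands for a gene.

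Fits used limma 3.58.1 in R 4.3.3: SS against SI with the slide as a term, within slides from a fit with 4 groups, and slopes on both scores within those groups. Tests are two-sided with Benjamini-Hochberg adjustment at 0.05, and scores and correlations used exact permutation within slides or groups (numpy 2.4.6, scipy 1.17.1). On simulated data with changes of 1 (log2), 28% were recovered over all mice, 16% for labelled males and 2% for labelled females. With changes of 2 it was 88%, 67% and 51%, and for platelet slopes of 1 it was 31%. False calls were 10, 5 and 2 in these 3 comparisons and 3 for the slope. The noise was drawn separately for each probe, with 100 of 24013 probes changed by each size and 200 given a slope. Real probes moved with array brightness, so these shares do not give the power in the real data.

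All members are named, as are the 2 genes nearest to each tested member and the partner and marker genes that passed in all mice, at most 6 a list; 1 of the nearest genes is not reported here. Other genes were named after their values were seen. Members, lists and tests were chosen with earlier results of these data known, among them higher platelet genes, Gata1, Gata2 and Tal1 in SS, so these are no independent support. Alternatives were other scalings, normexp (offset 50) on median signals, the deposited value table, other filters, slide row, other probes, other score lists, a variance trend and leaving out each array. Array brightness as a term was chosen after seeing the data.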

Additional observations from a re-analysis of the deposited data

Results flagged for a closer look

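Of 42 comparisons of a member probe or score within a group of 4 arrays, 4 had 1 array far from the other 3; chance flags about 1 in 20 groups. Gata2 in SI labelled male 6 was at -3.90, against -2.26 to -2.05 in the other SI labelled males (scaled log2 signal). Zfpm1 in SI labelled male 4 was at 0.604 with its brighter probe, against -1.20 to -1.02 in the other 3, and at 0.641 with its other probe, against -1.28 to -1.07. The red cell score of SS labelled female 22 was -0.766, against -0.337 to -0.284 in the other SS labelled females; that array was also the brightest of its slide, with a log2 ratio of 0.58 to the mean array. The 2 SI arrays are those on which the platelet slope calls and the Zfpm1 result rest, with the values without them given beside those results.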

How the results depend on the processing

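SS minus SI in all mice kept 7 factors under every alternative that tested all of them except the 75th percentile over all probes, no filter and the other probes, where Runx1 was lost, and leaving out 1 array (6 to 7 factors, 1489 to 3858 probes, against 1915). Probe counts were 1245 with normexp and 1125 without a filter. No paired analysis was possible because the groups share no mouse numbers.

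In labelled males 2 probes passed with the 75th percentile of all probes, 1 with the median, 2 with quantile normalization and 168 in the deposited value table, where 2 factors rose (Gata2 0.0336, Gfi1b 0.0177). Leaving out 1 array gave 0 to 9412 probes, 0 to 7 factors higher and 0 to 1 lower, the high ends without SI labelled male 4. In labelled females 410 probes and 2 factors passed with normexp, 472 and 2 in the deposited value table, 52 and 0 without a filter, 540 and 2 with the row as a term, and 45 to 1912 and 0 to 7 when 1 array was left out. An SI labelled female left alone is assumed to vary like the other groups. The slide difference passed for 17 probes with quantile normalization and for 31 in the deposited table, with 1 factor (Runx1, 2.36, 0.00786), and for 1 to 669 when 1 array was left out. The median of all probes in labelled males was 0.09, and -0.09 with the 75th percentile of all probes; in labelled females it was -0.11, and 0.05 with that scale.

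The platelet slope passed for 575 probes and 2 factors in the deposited table, 769 probes without a filter, and 0 to 1261 probes and 0 to 5 factors when 1 array was left out. The red cell slope passed for 17639 probes with normexp, 26365 without a filter (2 factors positive, 1 negative), and 13 with brightness as a term (0 and 0 factors). It was positive for 0 and negative for 1 factor in the deposited table, and negative for 1 with quantile normalization or the row as a term. Leaving out 1 array gave 4164 to 10098 probes, 0 to 1 positive and 1 to 3 negative factors. The slope difference passed for 8848 probes with the 75th percentile of all probes, 12682 with normexp, 1676 (2 factors) in the deposited table, 28 (0 factors) with brightness, and 1876 to 3034 (2 to 6 factors) when 1 array was left out.

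Signs turned for small values. With the 75th percentile of all probes Lyl1 in labelled females was 0.0395, the slide differences of Nfe2 and Zfpm1 were 0.23 and 0.0893, and the red cell score in labelled males was -0.0832, which was also -0.0997 with quantile normalization and -0.017 in the deposited table. In the deposited table the slide differences of Gata2 and Gfi1b were -0.64 and -0.22, and the Zfpm1 slope difference was 0.064. With normexp the Gfi1b slide difference was -0.0027 and its red cell slope 0.0464. The Runx1 slide difference was -0.13 with the other probe, and the Lyl1 platelet slope -0.0294 with quantile normalization.

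When 1 array was left out, Lyl1 and Zfpm1 in labelled females ran from -0.34 to 0.10 and from -0.27 to 0.53, the slide differences of Nfe2 and Zfpm1 from -0.25 to 0.18 and from -0.68 to 0.15, and the red cell slopes of Fli1 and Gfi1b from -0.12 to 0.0731 and from -0.13 to 0.0225. The platelet score difference ran from 1.24 to 1.61 in all mice and from 0.91 to 1.56 in labelled males, where 5 of the 14 fits had an exact permutation p of 0.0571. The red cell score difference ran from -0.56 to 0.0584, from -0.37 to 0.72 in labelled males and from -1.12 to -0.46 in labelled females. Array brightness was a term in the slope fits only, and the cause of these changes was not tested.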
